A study of Mus musculus with 20 samples.

Results

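The mouse aortas of this series were read for 9 genes grouped as lying outside lipid metabolism: Cmbl, Sgk2, Rnd1, Prkar2b, Tob2, Sub1, Serf1, Haghl and Slc6a6. Of these, Cmbl and Prkar2b followed the fat markers described below most closely. The 9 genes are among 18193 genes that the array annotation names with a single symbol, and among the 11081 genes bright enough to be tested. They were chosen by their signals on these same arrays, which differed between rosiglitazone-treated and chow-fed aortas, so that difference is described below and not tested. Rosiglitazone, a thiazolidinedione drug, was mixed into the food of adult C57BL/6J mice at 3 mg/kg/day for 2 days (3 arrays), 3 mg/kg/day for 14 days (3 arrays), 10 mg/kg/day for 2 days (3 arrays) or 10 mg/kg/day for 14 days (2 arrays), and control mice ate standard chow (3 arrays). In a second experiment, adult mice with a dominant-negative P465L form of PPARγ, knocked into the gene's own locus (3 arrays), were set beside wild-type littermates (3 arrays). Neither P465L mice nor wild-type littermates received the drug, and the sources used here do not give their strain background, the zygosity of the mutation, or the sex and exact age of any mice. Each array was hybridised with RNA of 8 aortas mixed together, and the p-values below measure the spread between such pools. The number of arrays limits the precision.

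PPARγ is a nuclear receptor that pairs with RXR, binds DNA and switches on target genes when a fatty acid or a thiazolidinedione occupies it. It is the master regulator of fat cell formation. It is also present in the endothelium and smooth muscle of arteries, where loss of its function is known to alter blood pressure and vessel tone. The dominant-negative mutant binds DNA but responds poorly to ligand. The 9 genes act in several steps of cell physiology: Cmbl is a hydrolase of lactones and esters, Prkar2b, Sgk2 and Rnd1 carry intracellular signals, Tob2, Sub1 and Serf1 act on RNA, DNA or protein folding, Haghl resembles a glyoxalase, and Slc6a6 carries taurine into cells.

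Promoter windows from RefSeq (GRCm38.p6), reaching from 250 bases before to 50 bases after a gene's start, were listed for 6 of the 9 genes, as 9 windows. Those of Cmbl and Prkar2b are shown because these genes followed the fat markers of an aorta most closely. Those of Serf1 and Tob2 are shown because their signals over the 20 arrays, group differences included, were the most alike among the 9 genes. They read 5′ to 3′ on the strand of the gene, in lower case, with capitals on each GC box (GGGCGG on either strand). The windows of Cmbl and Prkar2b belong to starts that lie inside the annotated genes.
Cmbl, chr15:31568583-31568882, plus strand: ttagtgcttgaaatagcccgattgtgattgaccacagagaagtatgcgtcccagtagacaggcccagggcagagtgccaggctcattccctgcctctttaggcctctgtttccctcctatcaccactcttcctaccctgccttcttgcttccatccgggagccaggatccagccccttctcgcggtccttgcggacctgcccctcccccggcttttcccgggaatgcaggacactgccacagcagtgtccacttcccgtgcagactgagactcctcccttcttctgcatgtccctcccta
Prkar2b, chr12:32061228-32061527, minus strand: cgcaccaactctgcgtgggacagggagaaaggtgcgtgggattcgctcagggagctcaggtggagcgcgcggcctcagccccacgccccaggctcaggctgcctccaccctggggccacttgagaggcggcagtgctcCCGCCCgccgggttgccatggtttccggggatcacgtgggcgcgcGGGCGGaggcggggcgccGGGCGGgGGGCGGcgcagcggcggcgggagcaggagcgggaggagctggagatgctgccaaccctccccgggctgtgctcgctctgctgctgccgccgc
Serf1, chr13:100107769-100108068, plus strand: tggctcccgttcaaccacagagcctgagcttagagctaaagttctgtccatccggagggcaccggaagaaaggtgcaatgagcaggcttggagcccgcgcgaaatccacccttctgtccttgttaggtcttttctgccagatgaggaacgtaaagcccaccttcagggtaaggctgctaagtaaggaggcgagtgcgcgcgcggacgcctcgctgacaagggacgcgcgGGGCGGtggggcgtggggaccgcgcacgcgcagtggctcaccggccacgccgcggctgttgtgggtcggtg
Tob2, chr15:81858277-81858576, minus strand: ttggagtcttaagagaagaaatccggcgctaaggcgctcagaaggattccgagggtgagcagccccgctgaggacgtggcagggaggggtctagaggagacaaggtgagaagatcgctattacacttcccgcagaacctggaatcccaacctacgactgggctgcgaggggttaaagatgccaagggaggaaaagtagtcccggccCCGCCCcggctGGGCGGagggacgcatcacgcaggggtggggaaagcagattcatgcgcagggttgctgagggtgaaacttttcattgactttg

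The hexamer AGGTCA, which nuclear receptors of the PPARγ and RXR group recognise, was in 0 of the 9 windows on either strand, and in 16.3% of the 32841 promoter windows of that length in the table. The direct repeat AGGTCANAGGTCA with at most 2 mismatches was also in 0 of the 9 windows, and in 3.86% of all windows. These counts say only that the letters are not in these 300 bases. The GC box was found 4 times in the Prkar2b window shown, 2 times in those of Tob2 and Sub1, 1 time in that of Serf1 and 0 times in that of Cmbl, and 35.7% of all windows held it. Sub1 and Haghl each had the CCAAT box (CCAAT, on either strand), which 37.4% of all windows held. On the chromosomes, 4 of the 9 genes lay on chromosome 15, which carries 3.91% of the tested genes: Sub1 (11981336 to 11996038), Cmbl (31565342 to 31590119), Tob2 (81848270 to 81858326) and Rnd1 (98669205 to 98677461). Prkar2b lay on chromosome 12 (31958450 to 32061648), Serf1 on chromosome 13 (100108019 to 100114233), Sgk2 on chromosome 2 (162987327 to 163014139), Haghl on chromosome 17 (25779843 to 25785586) and Slc6a6 on chromosome 6 (91684048 to 91759063).

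Signals below are the deposited values of a gene's brightest probe set, on a linear scale, and differences are of log2(signal + 72). Every array was scaled to a trimmed mean of 1500, and Pearson's r across genes between replicate arrays was 0.964 to 0.988. Smooth muscle RNA was present on every array: the summed signal of 7 smooth muscle markers was 335261 to 482748 over the 20 arrays. Fat was present too: Adipoq, the adipocyte hormone adiponectin, had signals of at least 18239.6 on every array. In such bulk RNA, a change in the number of cells of a type and a change in RNA per cell cannot be told apart. On replicate C of the 3 mg/kg/day 2-day group, 5 kidney markers summed to 44455, against 1317 to 5679 on the other 19 arrays. Liver markers summed to 485 to 1521 in P465L aortas, against 2383 to 9734 in wild-type littermates. For lymphocyte markers the sums were 2626 to 3019 against 1441 to 2205, and for skeletal muscle 2563 to 30595 against 10076 to 50238. The part of such tissue in the differences below was not tested. The P465L change is a single amino acid that these probe sets cannot read. Pparg signals were 1156 to 3354 in P465L aortas and 1635 to 2727 in wild-type littermates.

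Cmbl, the lactone and ester hydrolase, is known in humans for activating the prodrug olmesartan medoxomil. Signals are listed as replicates A, B and C of each group. Its signals were 2714, 1342 and 2687 at 3 mg/kg/day for 2 days, 1455, 3097 and 1904 at 3 mg/kg/day for 14 days, 1649, 1789 and 1711.5 at 10 mg/kg/day for 2 days and 2788 and 1847 at 10 mg/kg/day for 14 days, against 862, 829 and 575 on chow. All 11 treated arrays lay above all 3 chow arrays, and chow replicate C was the lowest of the 20. Averaged over the 4 treated groups, Cmbl was 1.37 higher on the log2 scale than on chow (SE 0.22), a fold of 2.58, and 1.44, 1.38, 1.13 and 1.52 in those groups in the order given. In the other experiment its signals were 1604, 984 and 763 in P465L aortas, against 1608, 1481 and 1391 in wild-type littermates. The wild-type littermates, which had no drug, were also above chow, and 9 of the 11 treated arrays were above them while 1 was below.

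Prkar2b encodes the RIIβ regulatory subunit of protein kinase A, the cAMP-dependent kinase, and holds its catalytic subunits inactive until cAMP binds. It is the main regulatory form in fat tissue and brain. Its signals were 8160.1, 4577.5 and 10093 at 3 mg/kg/day for 2 days, 4588, 7699.7 and 6503 at 3 mg/kg/day for 14 days, 6425, 8939 and 6664 at 10 mg/kg/day for 2 days and 9747 and 7557 at 10 mg/kg/day for 14 days, against 3717, 4082 and 1817 on chow. The treated and chow arrays did not overlap, and chow replicate C was again the lowest. The average difference was 1.24 (SE 0.27), and it was 0.88 without that chow array. In the other experiment Prkar2b had signals of 8999, 4719.9 and 3855 in P465L aortas, against 7869.7, 8699 and 4632 in wild-type littermates. These untreated arrays spanned most of the treated range, with 3 of the 11 treated arrays above all wild-type littermates and 2 below them. Its other probe sets, with average differences of 1.33 and 0.97, pointed the same way.

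Sgk2, a kinase of the serum- and glucocorticoid-regulated family that acts on ion channels and transporters, had signals of 659.5, 343 and 818 at 3 mg/kg/day for 2 days, 631, 1237 and 702 at 3 mg/kg/day for 14 days, 577, 765 and 739 at 10 mg/kg/day for 2 days and 803 and 735 at 10 mg/kg/day for 14 days, against 283, 297.5 and 294 on chow. The chow arrays were tightly grouped, and the treated arrays, replicate B at 3 mg/kg/day for 2 days lowest, all lay above them. The average difference was 1.10 (SE 0.23). The group values were 0.83 at 3 mg/kg/day for 2 days, 1.30 at 3 mg/kg/day for 14 days, 1.07 at 10 mg/kg/day for 2 days and 1.21 at 10 mg/kg/day for 14 days. Without the kidney-rich array the 2-day value at 3 mg/kg/day was 0.60, and the average was 1.04. In the other experiment Sgk2 had signals of 347, 356.5 and 164 in P465L aortas, against 321, 239.8 and 367 in wild-type littermates, levels that overlapped each other, and 10 of the 11 treated arrays lay above all wild-type littermates.

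Rnd1, an atypical small GTPase that stays bound to GTP and opposes actin stress fibres and cell adhesion, had signals of 673, 829 and 861 at 3 mg/kg/day for 2 days, 900.5, 745 and 971 at 3 mg/kg/day for 14 days, 749, 835 and 877 at 10 mg/kg/day for 2 days and 815 and 1386 at 10 mg/kg/day for 14 days, against 408, 286.5 and 612 on chow. Every treated array was above every chow array, although chow replicate C came close. The average difference was 0.95 (SE 0.18), and it was 0.73 without chow replicate B and 1.19 without chow replicate C. Its signals in the other experiment were 518, 420.1 and 496.5 in P465L aortas, against 441.5, 440.3 and 606 in wild-type littermates. Here the treated arrays were above all 9 untreated arrays of both experiments, which were at 286.5 to 612.

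Tob2 belongs to the antiproliferative TOB and BTG proteins, which recruit the CCR4-NOT deadenylase to shorten the tails of messenger RNAs. Its signals were 16133, 18475 and 19360.4 at 3 mg/kg/day for 2 days, 15503, 17832 and 17854 at 3 mg/kg/day for 14 days, 20616, 20431 and 21212 at 10 mg/kg/day for 2 days and 20903.5 and 20987 at 10 mg/kg/day for 14 days, against 13530.5, 15391 and 13952 on chow. On this probe set the 5 arrays at 10 mg/kg/day were all above the 6 at 3 mg/kg/day, an order that its other probe sets did not share, and all 11 were above chow. On average the difference was 0.42 (SE 0.08), small beside those of the genes above but with little spread between pools. Tob2 signals in the other experiment were 12653, 10406 and 12768 in P465L aortas, against 10272, 9571 and 10242 in wild-type littermates. The P465L arrays lay above all 3 wild-type arrays, and all 6 lay below chow. The probe set used is of a type whose probes can also match other transcripts, and the other 4 probe sets had average differences of 0.41, 0.27, 0.23 and 0.26.

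Sub1, a single-stranded-DNA-binding coactivator of RNA polymerase II also called PC4, had signals of 7905, 9053.5 and 9396 at 3 mg/kg/day for 2 days, 9287, 8356 and 9064 at 3 mg/kg/day for 14 days, 9359, 9012 and 10187.5 at 10 mg/kg/day for 2 days and 9399 and 10471 at 10 mg/kg/day for 14 days, against 6546, 7307 and 7019 on chow. Treated and chow arrays did not overlap, and the spread within each group was narrow. The average difference was 0.41 (SE 0.08), but its dimmer probe set gave -0.14, and the mean of both probe sets gave 0.13. Sub1 signals in the other experiment were 8525, 9425 and 8253 in P465L aortas, against 7902, 7966 and 8961 in wild-type littermates. All 6 of these arrays lay above chow and overlapped the treated arrays, and 9 of the 11 treated arrays were above all wild-type littermates.

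Serf1, a small charged protein whose relative in Caenorhabditis elegans promotes protein aggregation, lies beside the survival motor neuron gene. Its signals were 1130.1, 1195 and 1359 at 3 mg/kg/day for 2 days, 1698, 1291 and 1737 at 3 mg/kg/day for 14 days, 1567, 1769 and 1682 at 10 mg/kg/day for 2 days and 1614 and 2153 at 10 mg/kg/day for 14 days, against 1009, 1042 and 884 on chow. All treated arrays were above all chow arrays, by the narrowest margin at 3 mg/kg/day for 2 days. The group differences were 0.31 at 3 mg/kg/day for 2 days, 0.64 at 3 mg/kg/day for 14 days, 0.73 at 10 mg/kg/day for 2 days and 0.89 at 10 mg/kg/day for 14 days, with an average of 0.64 (SE 0.13). In the other experiment its signals were 1042, 850.4 and 1211 in P465L aortas, against 761, 575 and 777.5 in wild-type littermates. Its 3 P465L arrays lay above all 3 wild-type arrays, and wild-type arrays lay below chow. The other 3 probe sets of Serf1 had average differences of 0.08, 0.62 and 0.28. At 3 mg/kg/day for 14 days they were at -0.12, -0.11 and 0.23.

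**Figure D1:**
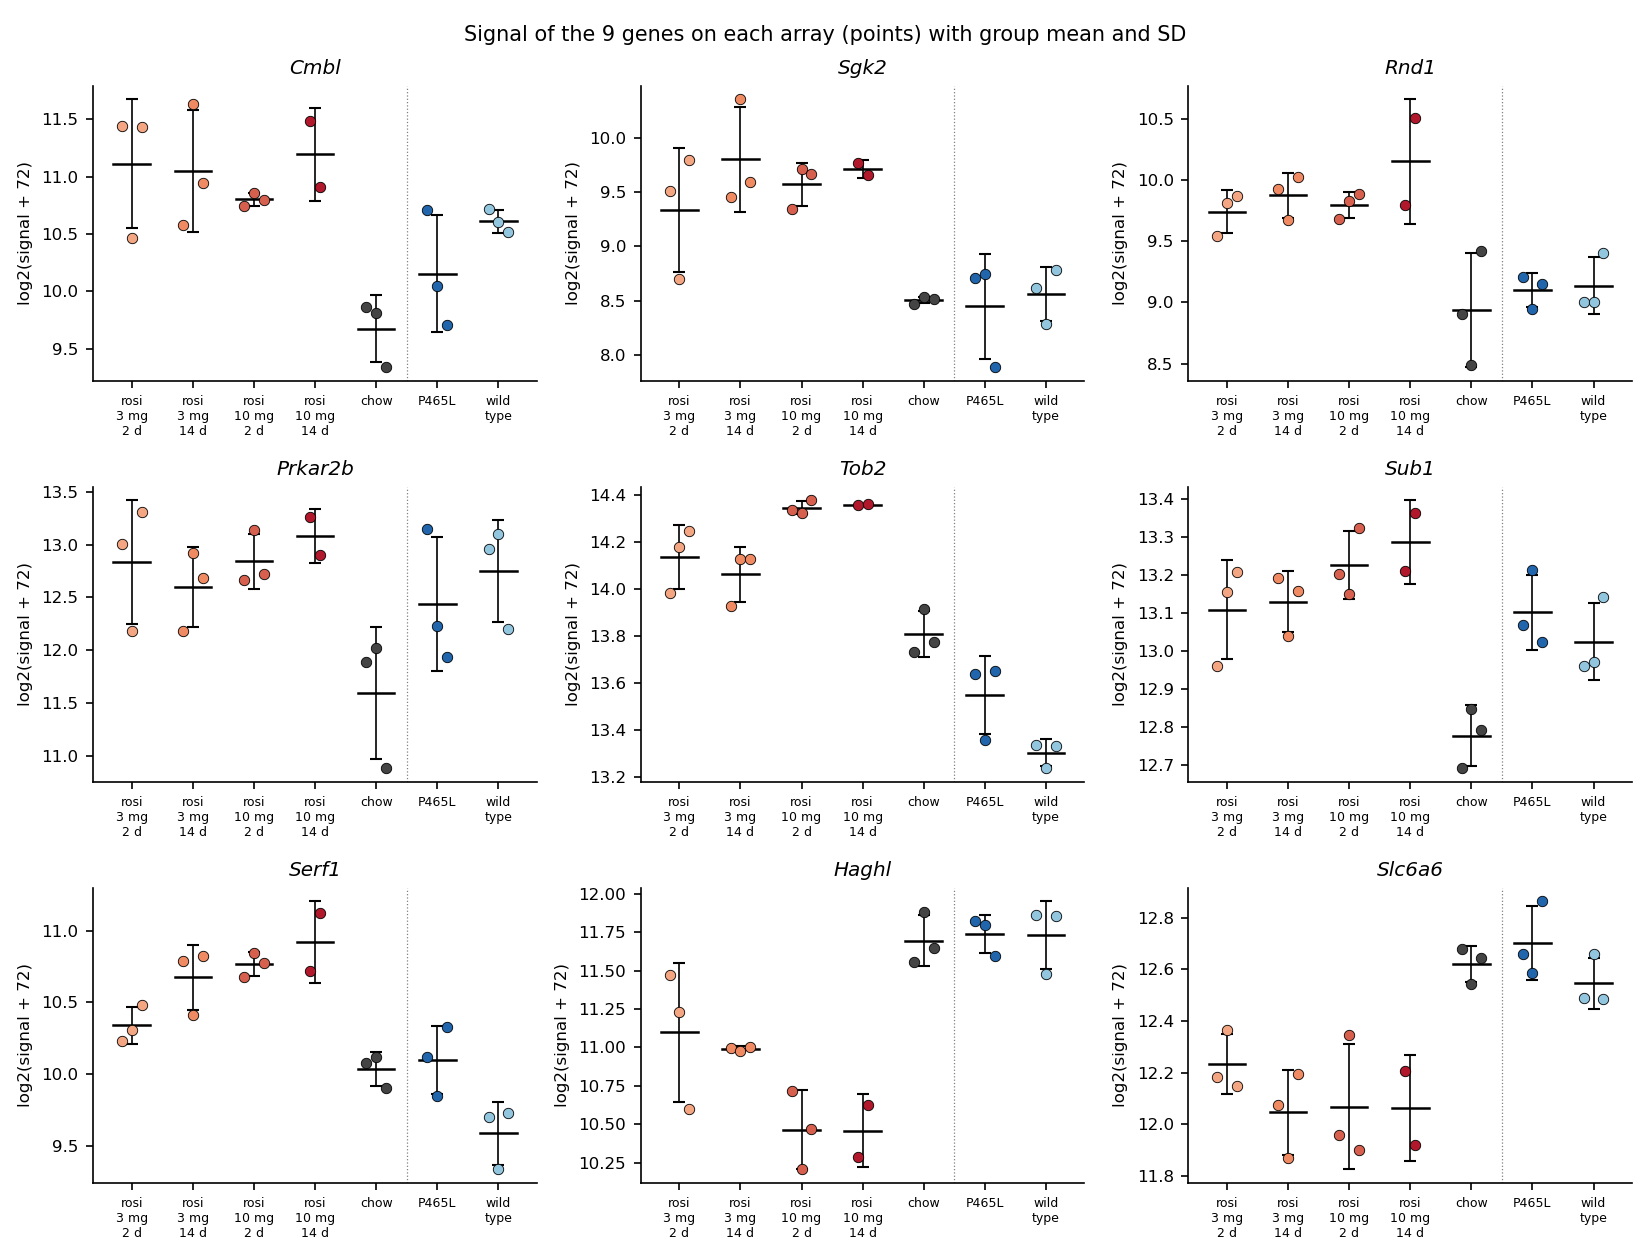
Log2(signal + 72) of the 9 genes on each of the 20 arrays (points) with the group mean and SD (line and bar), treated groups left of chow and P465L left of wild type. With the brightest probe set of each gene shown, all 11 rosiglitazone arrays lie above chow for 7 genes and below it for Haghl and Slc6a6.

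Haghl and Slc6a6 ran the other way. Haghl resembles hydroxyacylglutathione hydrolase, the enzyme that completes the detoxification of methylglyoxal. Its signals were 2763.5, 2333 and 1477 at 3 mg/kg/day for 2 days, 1971, 1944 and 1983 at 3 mg/kg/day for 14 days, 1612, 1110.2 and 1347 at 10 mg/kg/day for 2 days and 1180.2 and 1509 at 10 mg/kg/day for 14 days, against 2936, 3697 and 3136 on chow. Treated arrays were all below chow, and the 5 at 10 mg/kg/day included the 3 lowest. The average difference was -0.94 (SE 0.14), with group values of -0.59 at 3 mg/kg/day for 2 days, -0.70 at 3 mg/kg/day for 14 days, -1.23 at 10 mg/kg/day for 2 days and -1.24 at 10 mg/kg/day for 14 days. Replicate C at 3 mg/kg/day for 2 days, the kidney-rich array, was the lowest of the 3 mg/kg/day arrays, and without it the 2-day value at that dose was -0.34 in place of -0.59. Haghl signals in the other experiment were 3545, 3484.5 and 3019.6 in P465L aortas, against 3648, 2773 and 3623 in wild-type littermates. All 6 of these arrays were above all treated arrays, the lowest of them only narrowly, at 2773 against 2763.5. Its other probe sets gave -0.57, -0.41 and, below the level filter, 0.33.

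Slc6a6, the sodium- and chloride-dependent taurine transporter of the plasma membrane, had signals of 4581, 5210.3 and 4468 at 3 mg/kg/day for 2 days, 4246, 3669.7 and 4618 at 3 mg/kg/day for 14 days, 3903, 5132 and 3749.9 at 10 mg/kg/day for 2 days and 4656 and 3799 at 10 mg/kg/day for 14 days, against 6489.9, 5903 and 6325 on chow. No treated array reached the chow level. The average difference was -0.52 (SE 0.10), and the group values were -0.39 at 3 mg/kg/day for 2 days, -0.58 at 3 mg/kg/day for 14 days, -0.56 at 10 mg/kg/day for 2 days and -0.56 at 10 mg/kg/day for 14 days. Slc6a6 signals in the other experiment were 6393, 6074 and 7381 in P465L aortas, against 5684, 6402 and 5669 in wild-type littermates, all above every treated array. Its other 3 probe sets gave -0.28, -0.28 and -0.88, of which 1 passed the level filter.

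In all, with only the brightest probe set of each gene counted, 7 genes were above and 2 below chow without overlap. This held in the pooled treated arrays and in each of the 4 treated groups. In the pooled arrays, 0.803% of tested genes were above and 1.26% below. Within a single treated group, the share of all genes that did not overlap with chow was 12% at 3 mg/kg/day for 2 days, 13.6% at 3 mg/kg/day for 14 days, 23.7% at 10 mg/kg/day for 2 days and 35% at 10 mg/kg/day for 14 days. For the average, 48 of 11081 genes (0.433%) were called by limma, and the 9 genes are among them by the way they were chosen. Set against the 6 chow and wild-type arrays together, Rnd1, Tob2 and Serf1 were above and Haghl and Slc6a6 below, and Cmbl, Sgk2, Prkar2b and Sub1 overlapped. Of all tested genes, 0.397% did not overlap in that comparison. On their brightest probe sets, Rnd1, Tob2, Haghl and Slc6a6 did not overlap with any of the 9 untreated arrays, as 0.289% of genes did not. Some dimmer probe sets above the level filter did overlap. For Slc6a6 this was 3645 to 4464 at 3 mg/kg/day for 14 days, against 3342 to 4351 on chow. For Tob2 it was 2060 to 2883 at 10 mg/kg/day for 2 days, against 1570 to 2873 on chow. For Haghl it was 1257 to 1453 at 3 mg/kg/day for 2 days, against 1174 to 1691 in P465L aortas. A dimmer Serf1 probe set was at 179 to 606.5 at 3 mg/kg/day for 14 days, against 160 to 669 on chow. One of Prkar2b was at 1526 to 4183 at 3 mg/kg/day for 2 days, against 595 to 1941 on chow. The dimmer Sub1 probe set was at 880 to 1653.5 at 3 mg/kg/day for 2 days, against 1142 to 1456 on chow. Among the 16 other probe sets of 6 of the genes, 14 had the sign of the brightest one, and Cmbl, Sgk2 and Rnd1 had a single probe set.

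**Figure D2:**
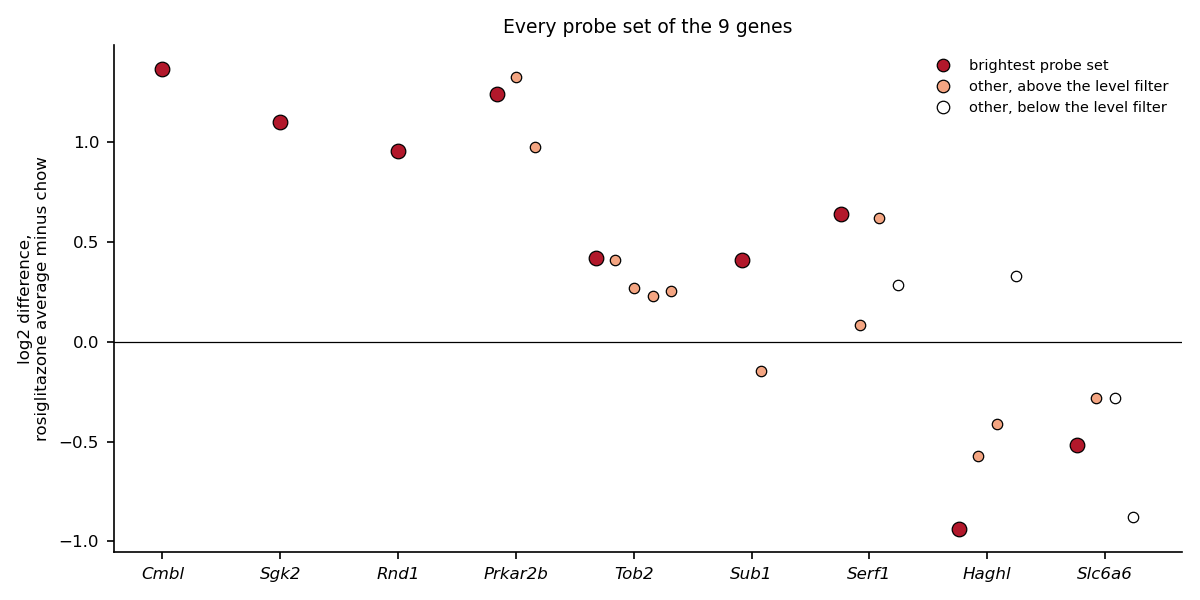
Log2 difference, average of the rosiglitazone groups minus chow, for each of the 25 probe sets of the 9 genes. The large point is the brightest probe set, and 1 of the others for Sub1 and 1 for Haghl lie on the opposite side of 0.

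Dose was tested with no chow array in the comparison, as 10 minus 3 mg/kg/day over both durations, although the treated values were known when the genes were chosen. Haghl signals were 1110.2 to 1612 at 10 mg/kg/day and 1477 to 2764 at 3 mg/kg/day, a difference of -0.58 (SE 0.14), with adjusted p = 0.185 by limma, and the doses overlapped through the kidney-rich array. Tob2 differed by 0.25 (SE 0.07, adjusted p = 0.254) on its brightest probe set, where the arrays at 10 mg/kg/day all lay above those at 3 mg/kg/day, as they did for 0.433% of tested genes. Its other 4 probe sets had dose differences of 0.05, -0.21, 0.02 and -0.33, and the mean over its probe sets turned the direction, to -0.04. The Serf1 difference was 0.34 (SE 0.12, adjusted p = 0.291), with other probe sets at 0.09, 1.05 and -0.35, and those of Haghl were at -0.38, -0.29 and -0.35. limma called 0 of the 9 genes and 0 of all 11081 genes (0%) for dose, while 3 of the 9 genes and 1405 of all genes (12.7%) had an unadjusted p under 0.05. Without the kidney-rich array the Haghl difference was -0.71 with an adjusted p of 0.0505. The other 6 genes had dose differences from -0.08 for Cmbl to 0.24 for Prkar2b. Between 14 and 2 days, limma called 0 of 9 genes and 0 of all genes (0%), with 0 of 9 and 464 genes at an unadjusted p under 0.05. The largest duration differences were 0.30 for Sgk2 (95% interval -0.15 to 0.75), 0.24 for Rnd1 (-0.11 to 0.59) and 0.24 for Serf1 (-0.01 to 0.49). For the interaction of dose and duration the counts were again 0 of 9 and 0 of all genes (0%), with 0 of 9 and 486 genes unadjusted.

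P465L minus wild type is the contrast that did not choose the genes, although its results were known by then. limma called 0 of the 9, against 2 of 11081 genes (0.018%), and 2 of the 9 and 823 of all genes (7.43%) had an unadjusted p under 0.05. Those 2 genes were Serf1, with a P465L minus wild-type difference of 0.51 (SE 0.16, adjusted p = 0.505), and Tob2, at 0.24 (SE 0.10, adjusted p = 0.646). Their 3 P465L arrays lay above all 3 wild-type arrays, as did those of 7.35% of tested genes. The other probe sets were at 0.08, -0.30 and -0.02 for Serf1, and at 0.12, -0.39, -0.12 and 0.02 for Tob2. Cmbl differed by -0.46 (95% interval -1.04 to 0.12) and Prkar2b by -0.31 (-1.01 to 0.38), both with intervals that include 0. The differences were -0.11 for Sgk2, -0.04 for Rnd1, 0.08 for Sub1, 0.01 for Haghl and 0.16 for Slc6a6.

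**Figure D3:**
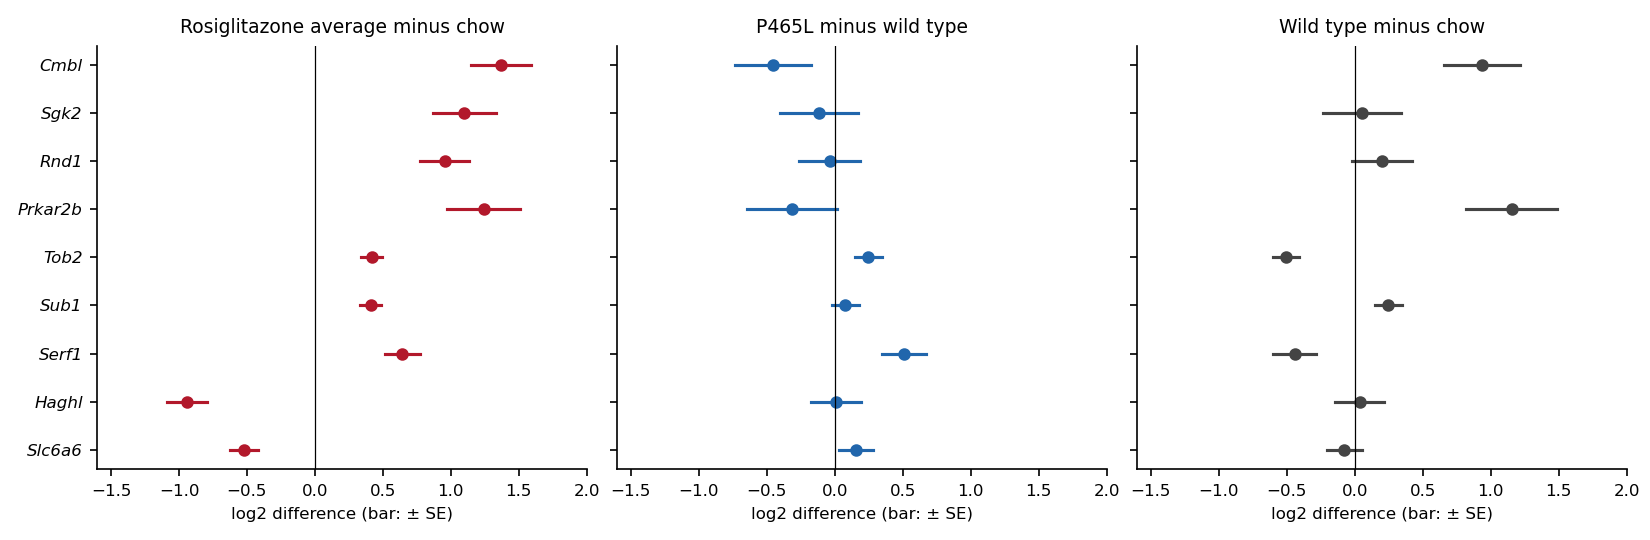
Log2 differences of the 9 genes (points) with the standard error of the fit (bars), for the average of the rosiglitazone groups minus chow, P465L minus wild type, and wild type minus chow. The second panel has 0 called genes, and the outer panels share the chow arrays.

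Wild-type littermates and chow-fed controls were both untreated but came from separate experiments, so genetic background and experiment cannot be told apart, and limma called 719 of 11081 genes (6.49%) between them. The chow arrays also chose the genes, so the values are a description. Wild type minus chow was 1.15 for Prkar2b and 0.94 for Cmbl, beside rosiglitazone differences of 1.24 and 1.37. Tob2, at -0.51, and Serf1, at -0.44, lay below chow there. Sub1 was at 0.25, and the other 4 genes were between -0.08 for Slc6a6 and 0.20 for Rnd1.

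On average, markers of fat cells were higher in treated than in chow-fed aortas, and the summed endothelial signal was lower. For the rosiglitazone average limma called 0 of 6 adipocyte and 0 of 7 brown adipocyte markers tested, against 0.433% of all genes. A fat marker score, the mean log2 signal of 14 adipocyte and brown adipocyte markers, averaged 12.62 ± 0.39 (SD, n = 11) in treated aortas and 11.99 ± 0.37 (SD, n = 3) on chow, and 12.09 ± 0.59 in P465L aortas and 12.72 ± 0.37 in wild-type littermates (SD, n = 3 each). Of 9 adipocyte markers 7 were analysed, and their summed signal was 58874 to 140470 in treated aortas, against 45892 to 69714 on chow. The 7 brown adipocyte markers summed to 84333 to 211504 in treated aortas, against 36897 to 79273 on chow. Several of these markers are themselves PPARγ targets, and the part of fat content in the results was not tested beyond the values here. As a description over the 20 arrays, which share their pools and scaling, deviations from the group means followed the score with Pearson's r of 0.92 for Cmbl, 0.89 for Prkar2b and 0.61 for Sgk2. The r was -0.03 for Tob2, 0.01 for Haghl, -0.22 for Slc6a6, -0.35 for Serf1, -0.48 for Sub1 and -0.52 for Rnd1. With the score in the model, the rosiglitazone average was 0.60 for Prkar2b in place of 1.24, 0.84 for Cmbl in place of 1.37 and 0.77 for Sgk2 in place of 1.10. It was as large as without the score for Tob2 (0.42), Haghl (-0.94), Sub1 (0.48), Serf1 (0.74) and Rnd1 (1.16), and -0.47 for Slc6a6. The 6 endothelial markers summed to 23853 to 32007 in treated aortas, against 32057 to 40410 on chow, without overlap but by a narrow margin. They summed to 28290 to 29385 in P465L aortas, against 29573 to 36352 in wild-type littermates. Pecam1 made up a large part of the sum, with a mean of 16880 on chow and 10608 to 12251 in the treated groups. The median log2 difference of the 6 markers was -0.13 in the rosiglitazone average, with 2 positive and 4 negative. Pecam1, an endothelial adhesion molecule, was the 1 marker of the 6 that limma called, and it fell by 0.57 in the rosiglitazone average (adjusted p = 0.0209), while Cdh5 was at 0.37 and Kdr at 0.42. The part of endothelial content in the differences of the 9 genes, Haghl and Slc6a6 included, was not tested. Elovl3, a fatty acid elongase of brown fat and 1 of the 14 fat markers, fell by 2.35 in P465L aortas relative to wild type (adjusted p = 0.0087). In P465L minus wild type, the Cmbl difference became 0.07 and the Prkar2b difference 0.32 with the fat marker score in the model.

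**Figure D4:**
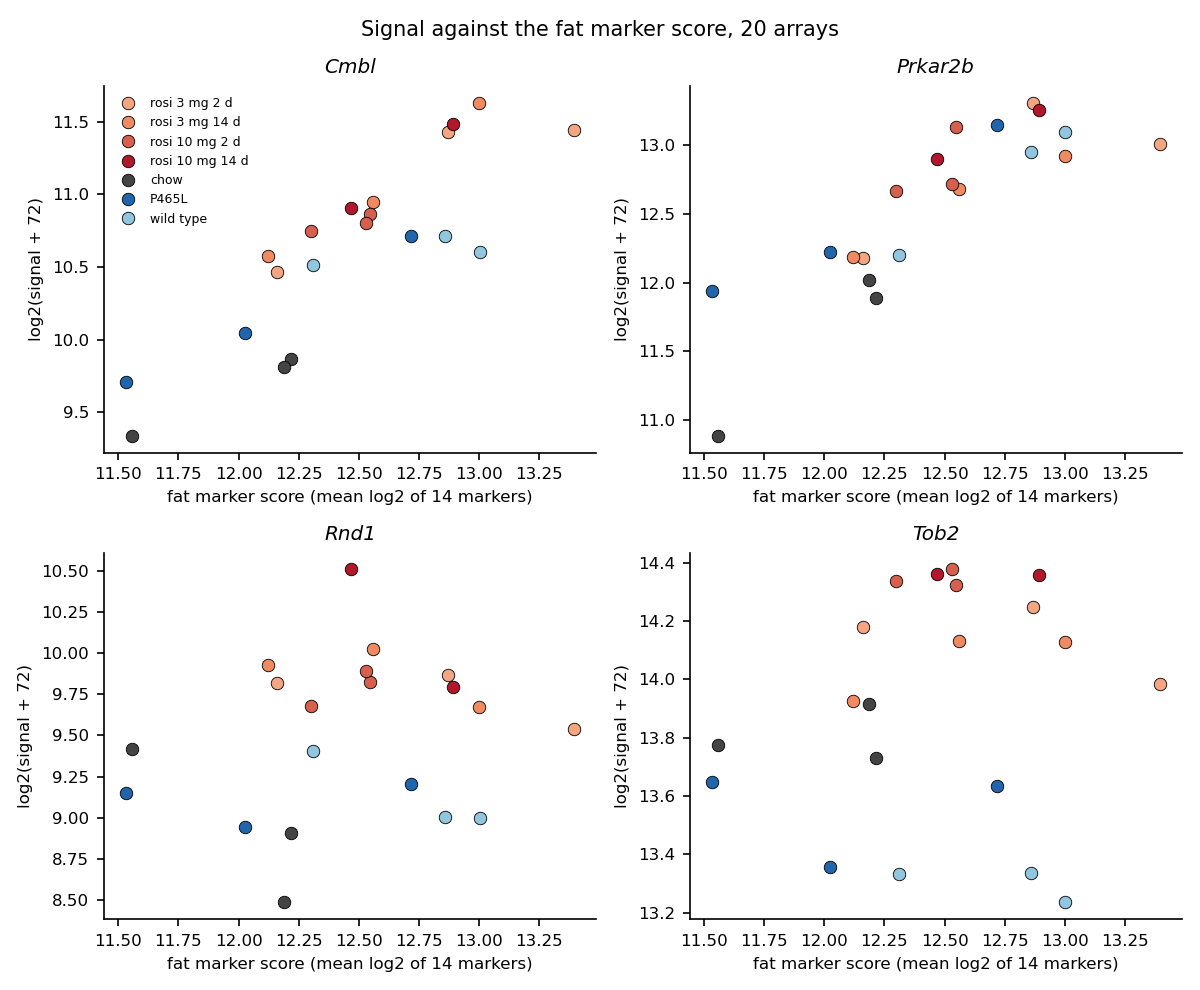
Log2(signal + 72) of Cmbl, Prkar2b, Rnd1 and Tob2 against the fat marker score on 20 arrays, coloured by group. Cmbl and Prkar2b climb with the score within and across groups, and for Rnd1 and Tob2 all treated arrays lie above all others.

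The nearest relatives of the 9 genes, and the enzymes and carriers next to them, were not called for the rosiglitazone average. Of 19 such genes 18 were tested, and limma called 0 for that average, against 0.433% of all genes. An unadjusted p under 0.05 was found for 4 of the 18, and for 14.2% of all genes. The differences ran from -0.40 for Rnd2 (adjusted p = 0.094) to 0.38 for Sgk1 (adjusted p = 0.136). At 10 mg/kg/day for 2 days, Rnd2 fell by 0.58 on the log2 scale (adjusted p = 0.0484). The other protein kinase A subunits were at -0.03 for Prkar2a, -0.09 for Prkar1a, -0.16 for Prkar1b, 0.19 for Prkaca and -0.10 for Prkacb. Sgk3 was at -0.17, Rnd3 at -0.03, Tob1 at 0.15, Btg1 at 0.35, Btg2 at 0.05 and Serf2, a relative of Serf1, at 0.13. Hagh, the glyoxalase that Haghl resembles, was at 0.14 and Glo1, the enzyme before it, at -0.18. Of the taurine genes, Csad, which makes taurine's precursor, was at 0.36, Cdo1 at -0.01 and the inositol transporter Slc5a3 at 0.07. These differences were not tested against those of the 9 genes.

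The 8 lists of companion genes held 140 genes, of which 113 were tested: protein kinase A and cAMP signalling, SGK and AKT kinases, TOB, BTG and CCR4-NOT, general transcription cofactors, SERF proteins, glyoxalase and glutathione enzymes, taurine and osmolyte handling, and esterases. For the rosiglitazone average limma called 0 of the 113, with 17 (15%) at an unadjusted p under 0.05, against 14.2% of all genes. The list medians ran from -0.07 to 0.13, and the median over all genes was -0.02. In the protein kinase A list 13 of 30 genes had positive differences and 17 negative ones. At 10 mg/kg/day for 2 days, where limma called 56 genes (0.505%), 1 of the 113 fell, which was Pon1, the paraoxonase of high-density lipoprotein, by 1.57 on the log2 scale (adjusted p = 0.0247). For P465L minus wild type 0 of the 113 were called, against 0.018% of all genes. There 10 of the 113 (8.85%) had an unadjusted p under 0.05, against 7.43% of all genes. On the lipid side, limma called 6 of 27 tested PPAR target genes higher in the rosiglitazone average, led by Acaa1b at 2.00 and Rbp7 at 1.97. Of all genes, 0.433% were called in either direction there. Between untreated wild-type littermates and chow, 9 of the 27 were called higher, against 6.49% of all genes called in either direction. The median difference of the 27 was 0.76 for wild type minus chow and 0.75 for the rosiglitazone average.

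The genes whose pattern over the 20 arrays was most like each member were ranked by Pearson's r, as a description. For Cmbl these were Gpihbp1 (0.94), Dnajc15 (0.93) and Rbp7 (0.92), and for Prkar2b Pdk4, Pck1 and Cd36 (0.95 each). Tob2 went with Notch3, Ip6k2 and Ly75 (0.92 each), and Serf1 most with Tob2 (0.89), then Map3k12 and Lgalsl (0.86 each). For deviations from group means, the r of Serf1 and Tob2 was 0.45, against 0.85 for Cmbl and Prkar2b. Haghl went with Vti1b (0.95), Cers4 (0.92) and Osgep (0.91), and Slc6a6 with Olfm1 (0.90), Hlcs (0.88) and Pqlc3 (0.84). Sgk2 went with Accs (0.88), Dcun1d3 (0.87) and Wdr66 (0.86), Rnd1 with Zbtb38 (0.83), Six4 (0.82) and Gm6211 (0.81), and Sub1 with Ccl11 (0.76), Ifrd1 and Dner (0.74 each). Sub1 had the lowest top value of the 9. Between members, Sgk2 and Slc6a6 were the most opposed pair (-0.90), and their deviations from group means had an r of -0.53. The members were chosen because treated and chow arrays differed, which by itself sets higher and lower members against each other. All genes on an array share its pool, its scaling and its fat content.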

How the data were processed

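RNA from 20 pools of 8 mouse aortas was measured on Affymetrix whole-genome mouse arrays. The deposited intensity values are linear signals per probe set, made with MAS5 per the submitters' processing notes. The sources used here do not give its version or any filter. The values show that each array was scaled to a 2% trimmed mean of 1500, which takes the total signal as equal across arrays. Array medians were 321.3 to 450.7, and dim probe sets are noisy.

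Of 45101 probe sets, 64 were controls, 34945 had a single gene symbol (18193 genes) and 932 had several. The brightest probe set of each gene was kept if its mean reached the 50th percentile of all probe sets (a signal of 352.4), which left 11081 genes and all 9 members. The members, their companion lists and the tests were chosen with earlier results of these data known.

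On log2(signal + 72), a mean per group was fitted to 20 arrays with limma 3.58.1 in R 4.3.3 (eBayes with a trend, 13 residual degrees of freedom). Tests were two-sided, with Benjamini-Hochberg adjustment over 11081 genes and a threshold of 0.05. The fit was tested on simulated data. Differences from chow are given for the members without a test, because the same contrast chose them. Of the companion lists, 1 is not reported here. Named were the members, fixed relatives, called genes of the companion lists and the 3 genes most like each member. Array letters did not pair the samples: over 57 same-letter pairs, the median r of deviations from group means was 0.025 (-0.301 to 0.358). Alternatives were the offset, the level filter, the probe set rule, the normalization, the variance model, the arrays included, a replicate block, a fat marker covariate and leaving out each array. Tables and figures used Python 3.11.15, numpy 2.4.6, pandas 2.3.3 and matplotlib 3.10.9.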

Additional observations from a re-analysis of the deposited data

How the results depend on the processing

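For P465L, dose, duration and their interaction, limma called 0 members under all 12 alternative settings and all 20 fits that left out 1 array, and the stricter level filter tested only 6 of the 9 members. The smallest adjusted p in these fits was 0.227 for P465L (Serf1, without wild-type replicate C), 0.0505 for dose (Haghl, without replicate C at 3 mg/kg/day for 2 days), 0.849 for duration and 0.676 for the interaction. The replicate block, with letters that did not pair the samples, gave 52 called genes for the rosiglitazone average, against 48 without it. That count was 17 with median centring, 260 with array weights, 82 with the fat marker covariate and 28 where the prior variance had no trend, and 1 to 83 when single arrays were left out. The lowest counts came without chow arrays: 1 without replicate C, 3 without replicate A and 11 without replicate B, and the highest without replicate B at 3 mg/kg/day for 2 days. Median centring put the median of all genes at -0.11 in place of -0.02 for this average, and the members kept their signs, with Tob2 at 0.33 and Sub1 at 0.32. The mean over all probe sets of a gene gave 0.13 for Sub1, 0.41 for Serf1 and -0.40 for Haghl, and turned the Tob2 dose difference to -0.04. The fat marker covariate gave 0.60 for Prkar2b and 0.84 for Cmbl. Of 2841 alternative values of the members and counts, 58 moved by more than their spread or by over 1.5 times. Cross-hybridising probe sets and 2 to 3 pools per group limit all values, and dim probe sets near the offset show compressed differences.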
